A study of Bos taurus with 6 samples.

Results

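Zinc finger genes named ZNF were compared between bovine blastocysts of high and of low cryosurvival. The members were all genes of the deposited expression table whose name is ZNF followed by a digit, which gave 157 of 9537 genes. The samples were blastocysts produced in vitro in SOFaaci medium, with 3 RNA libraries from embryos with high survival after vitrification (an ice-free rapid freezing) and 3 from embryos with low survival. High libraries are coded V and low libraries NV in their titles, codes that the labels leave unexplained, and the labels place RNA extraction neither before nor after vitrification. The labels state no breed, parents, pool size or separate cultures, so p-values cover only the spread between these libraries, which may be technical. In whole embryos, fewer cells of a type and less RNA per cell cannot be told apart.

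Most ZNF genes encode C2H2 proteins, in which a pair of cysteines and a pair of histidines hold a zinc ion and fold a short finger that reads DNA. Many carry several fingers in tandem behind a KRAB domain, which recruits TRIM28 (KAP1) and the histone methyltransferase SETDB1 to silence transposable elements and, in early embryos, to keep imprints. Others have a BTB or SCAN domain, act as activators, or work outside transcription, for example in ribosome assembly or on the mitotic spindle.

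The RNA was that of blastocysts by its markers. All 6 listed trophectoderm genes (GATA2, GATA3, CDX2, TFAP2C, KRT8 and KRT18) were measured, with a summed level of 30914 to 34137 CPM in high and 26374 to 36387 CPM in low libraries. All 3 inner cell mass genes (POU5F1, NANOG and SOX2) summed to 759 to 863 CPM in high and 679 to 989 CPM in low libraries. Of 3 hypoblast genes 2 were measured, at 8.49 to 14.3 CPM in high and 15.3 to 18.2 CPM in low libraries, ranges that did not overlap. Of 10 genes of cumulus and granulosa cells 4 were measured (27.5 to 29.1 CPM in high, 23.9 to 30.2 CPM in low), and of 3 sperm genes 1, TNP1, at 1.15 to 3.08 CPM. The part of these cell types in the ZNF results was not tested. The libraries held 14651477 to 19467022 reads in the table, and CPM here are reads divided by a library size that the authors had scaled. Low cryosurvival library 2 had the fewest reads, 14651477, against 17591314 to 19467022 in every other library. Its CPM summed to 1100410 over all genes, against 960647 to 995602 in every other library. The part of depth and scaling in the ZNF results was not tested.

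Low cryosurvival library 2 stood apart from the others, and it did so in the ZNF genes. ZNF genes took 0.276% of the reads in the table in that library, against 0.338% to 0.349% in the other 5. It held the lowest value of all 6 libraries in 86 of the 157 ZNF genes and the highest in 25. Over all genes these shares were nearly even, with low library 2 the lowest in 35.5% and the highest in 34.4%, against 54.8% and 15.9% of ZNF genes. Relative to each gene's mean over the high libraries on the log2(CPM + 1) scale, the median over ZNF genes was -0.28 in low library 2, 0.01 in low library 1 and -0.03 in low library 3. The high libraries had 0.01, -0.01 and 0.05. The median over all genes was between -0.004 and 0.002 in every library. Scaled library sizes can by themselves bring this median near 0, so it cannot tell whether all genes shared in the shift.

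**Figure D1:**
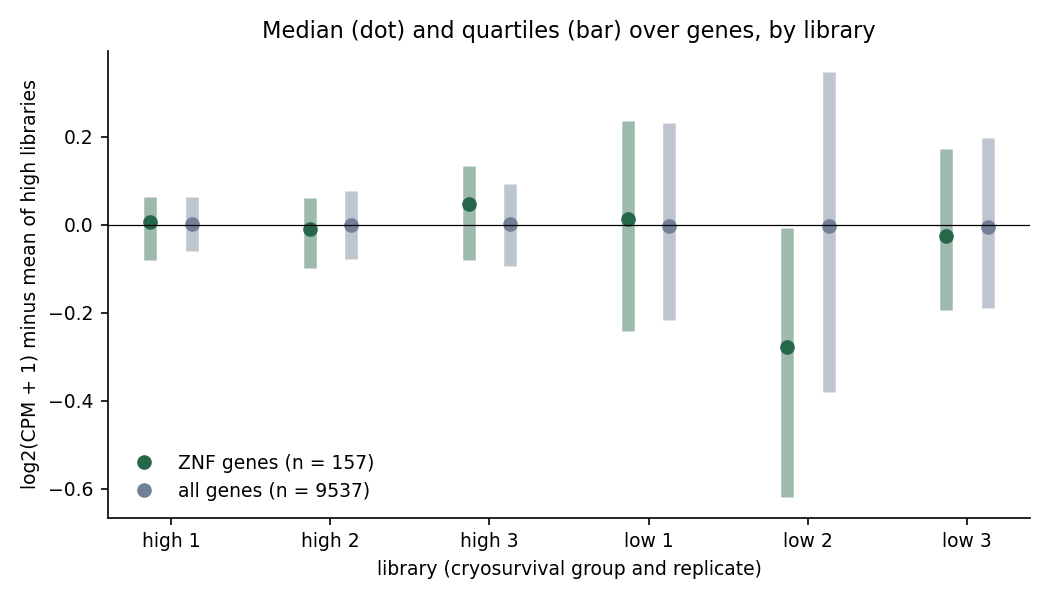
Deviation of each library from the mean of the high libraries, in log2(CPM + 1), as the median (dot) and the quartiles (bar) over the 157 ZNF genes and over all 9537 genes. The ZNF median of low library 2 is at -0.28, while the other 5 libraries lie between -0.03 and 0.05.

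As a family, ZNF genes were a little lower in low cryosurvival embryos, and this rested on low library 2. The median difference, low minus high on the log2(CPM + 1) scale, was -0.10 over the 157 ZNF genes and 0.00 over all genes. Of the ZNF genes 108 were lower and 49 higher in low, a share of 68.8% lower against 50.0% of all genes. Without low library 2 the ZNF median was 0.00, with 79 genes lower and 78 higher. Without any other single library the median stayed between -0.14 and -0.09. In 34 ZNF genes the sign turned from lower to higher when low library 2 was left out, and in 5 it turned from higher to lower. How many of all genes turned sign in this way was not counted. The ZNF genes had mean levels from 1.15 to 209 CPM with a median of 11.2 CPM, and 40 of them averaged under 5 CPM.

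No ZNF gene passed the test over all genes when all 6 libraries were used. Limma on log2(CPM + 1) with Benjamini-Hochberg adjustment over the 9537 genes called 0 ZNF genes at an adjusted p of 0.05, where the background was 0% of all genes. The smallest adjusted p of a ZNF gene was 0.164. At an unadjusted p below 0.05 there were 13 ZNF genes lower in low, against a background of 5.7% of all genes, and 3 higher, against 6.27%. Voom on reads recovered from the CPM also called 0 ZNF genes, with 12 at an unadjusted p below 0.05, where 11.7% of all genes were. In 26 ZNF genes every high library lay above every low library (10.6% of all genes did), and in 7 every low library lay above every high library (10.4% of all genes). These 33 genes had log2 differences from -1.14 to -0.16 and from 0.15 to 0.98. In the authors' deposited table, 3 ZNF genes had an adjusted p below 0.05. ZNF135 and ZNF131 were lower in low there, against 0.283% of all genes with a call in that direction. The call of ZNF774 in the authors' deposited table was in the other direction, which 0.912% of all genes shared.

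**Figure D2:**
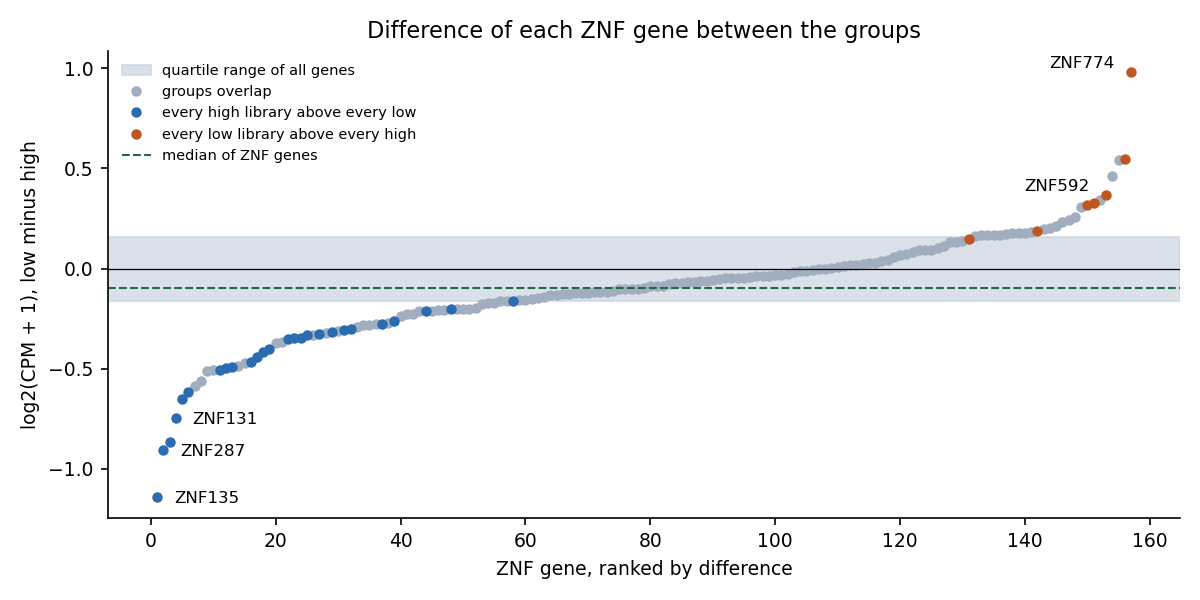
Difference of each of the 157 ZNF genes between the groups (low minus high, log2(CPM + 1)), ranked from lowest to highest. Coloured dots are the 26 genes with every high library above every low library and the 7 with the reverse; the dashed line is the ZNF median of -0.10 and the band is the quartile range of all genes, -0.16 to 0.16.

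ZNF131 and ZNF135 lay far below the family in low cryosurvival embryos, and both were singled out for description with these values known. They were not alone there. Counted from the lowest difference, ZNF135 had rank 1 and ZNF131 rank 4, with ZNF287 (-0.90) and ZNF182 (-0.86) between them. In ZNF287 and ZNF182 too, every high library was above every low library. ZNF287 was named after its values were seen. ZNF131 is a transcription factor with a BTB domain and zinc fingers. It was at 114, 99.1 and 122 CPM in high libraries 1, 2 and 3 and at 71.4, 57.2 and 70.9 CPM in low libraries 1, 2 and 3. Every high library was above every low library, and low library 2 was the lowest. The means were 112 ± 11.9 and 66.5 ± 8.09 CPM (SD, n = 3 each), a high over low ratio of 1.68. The log2 difference was -0.75 with a standard error of 0.15, which is 0.65 below the family median of -0.10 (limma adjusted p = 0.164). Without low library 2 it was -0.64 (limma adjusted p = 0.0239). The adjusted p in the authors' deposited table was 0.033. It rests on 761 to 2208 reads per library.

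ZNF135, a KRAB zinc finger gene, had the lowest difference of all 157. It was at 6.56, 8.55 and 7.60 CPM in the high libraries and at 3.00, 1.80 and 4.19 CPM in the low libraries. The groups were apart, and low library 2 was again the lowest. The means were 7.57 ± 0.996 and 3.00 ± 1.19 CPM (SD, n = 3 each), a high over low ratio of 2.53. The log2 difference was -1.14 with a standard error of 0.24, 1.04 below the family median (limma adjusted p = 0.164). Without low library 2 the difference was -0.91 (limma adjusted p = 0.0218). In the authors' deposited table its adjusted p was 0.018. It rests on 24 to 163 reads per library, so its values carry more counting error than those of ZNF131.

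ZNF774, a less studied zinc finger gene, went the other way and had the highest difference of the family. It was at 3.47, 2.99 and 2.88 CPM in the high libraries and at 5.34, 11.3 and 5.81 CPM in the low libraries. All low libraries were above all high ones, but low library 2 was far above the other low libraries, on 151 reads against 107 and 111. The means were 3.12 ± 0.315 in high and 7.50 ± 3.34 CPM in low (SD, n = 3 each), a low over high ratio of 2.41. The log2 difference was 0.98 with a standard error of 0.26, and 1.08 above the family median (limma adjusted p = 0.225). Without low library 2 it was 0.68 (limma adjusted p = 0.0188). Its adjusted p in the authors' deposited table was 0.045.

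When each library was centred on its own median over the ZNF genes, the differences of ZNF131, ZNF135 and ZNF774 were -0.60, -0.99 and 1.13. The adjusted p-values of limma were then 0.309, 0.222 and 0.422. The direction of these 3 genes was the same under each of the 15 alternatives of scaling, pseudocount, filter, pairing, test and left-out library. Their limma adjusted p was below 0.05 only without low library 2, where 13.6% of all genes were called. Without high library 1 the limma adjusted p-values were 0.632, 0.597 and 0.641. With the replicate number as a block they were 0.495, 0.495 and 0.502.

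**Figure D3:**
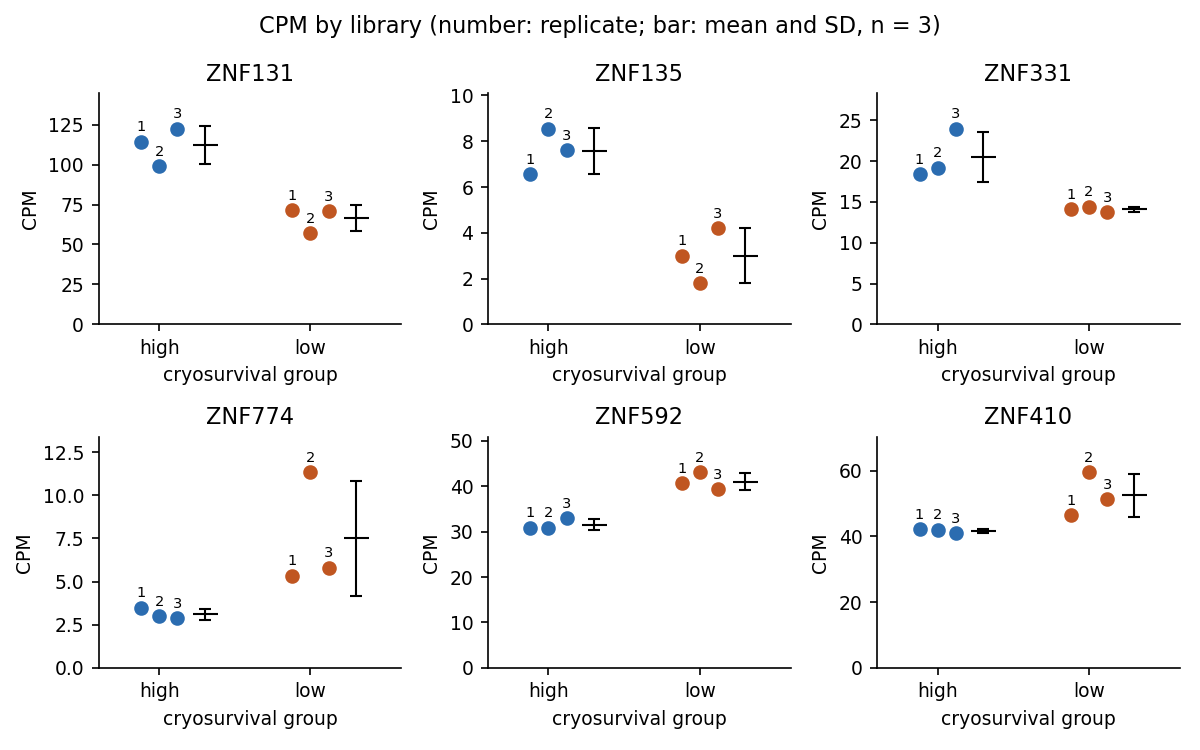
CPM of 6 ZNF genes in each library (dots, numbered by replicate) with the group mean and SD (n = 3). ZNF131, ZNF135 and ZNF331 are higher in every high library, and ZNF774, ZNF592 and ZNF410 are higher in every low library; low library 2 is the highest dot of ZNF774.

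Of the other ZNF genes with the smallest p-values, 6 that were lower in low cryosurvival embryos are given first. ZNF331, a KRAB gene that is imprinted in mammals, was at 18.4, 19.2 and 24.0 CPM in the high and 14.1, 14.4 and 13.7 CPM in the low libraries. Its low libraries were close to each other, so low library 2 did not set this difference of -0.50 (limma adjusted p = 0.235, and 0.0447 without low library 2). ZNF692 was at 43.0, 39.2 and 48.9 CPM in the high and 33.4, 32.0 and 31.6 CPM in the low libraries, a difference of -0.42 (limma adjusted p = 0.271) and of -0.41 without low library 2 (limma adjusted p = 0.0584). ZNF182 was at 8.01, 9.33 and 12.6 CPM in the high and 6.89, 2.55 and 6.49 CPM in the low libraries. Its difference of -0.86 was -0.49 without low library 2. ZNF572, ZNF502 and ZNF582 had differences of -0.47, -0.31 and -0.35, and of -0.34, -0.36 and -0.27 without low library 2. In all 6 of these genes every high library was above every low library, as in 10.6% of all genes. The genes were chosen for small p-values in these same libraries, so this lack of overlap adds no support. Their limma adjusted p-values were 0.235 to 0.370.

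On the side higher in low, ZNF592 belongs to a chromatin complex with ZNF687 and ZMYND8. It was at 30.9, 30.9 and 33.0 CPM in the high and 40.7, 43.1 and 39.4 CPM in the low libraries. The groups were apart, with narrow spread in both, and the difference was 0.37 (limma adjusted p = 0.271, and 0.0501 without low library 2). Its partner ZNF687 was at 99.9, 103 and 81.1 CPM in high and 117, 87.6 and 118 CPM in low libraries, where low library 2 lay among the high values, and its difference was 0.17, or 0.31 without that library. ZNF410, known as an activator of CHD4 transcription, was at 42.2, 41.9 and 40.9 CPM in high and 46.5, 59.5 and 51.4 CPM in low libraries. The groups of ZNF410 did not overlap, and its difference was 0.32 (limma adjusted p = 0.412, and 0.127 without low library 2). In 10.4% of all genes every low library was likewise above every high library. ZNF592 and ZNF410 were chosen for small p-values in these same libraries, so their lack of overlap and narrow spread add no support. CHD4, the NuRD remodeller, was at 234, 257 and 266 CPM in high and 375, 334 and 334 CPM in low libraries, a difference of 0.46 (limma adjusted p = 0.223, and 0.0340 without low library 2). Within the low group ZNF410 was highest in library 2 and CHD4 in library 1. A link between ZNF410 and CHD4 in these embryos was not tested. ZNF787 leaned on low library 2, with 15.9 CPM there, 8.44 and 7.02 CPM in the other low libraries and 5.82 to 6.97 CPM in the high libraries, and its difference of 0.55 was 0.23 without it. ZNF775 and ZNF70 had differences of 0.34 and 0.31 with overlapping groups (0.24 and 0.39 without low library 2).

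In some ZNF genes low libraries 1 and 3 lay above every high library and low library 2 did not. ZNF609, linked to cohesin loading and Integrator, was at 10.9, 13.2 and 8.60 CPM in high and 22.1, 9.46 and 19.8 CPM in low libraries. Low library 2 lay within the high values while low libraries 1 and 3 were above all of them, so the difference was 0.54 with this library and 0.90 without it (limma adjusted p = 0.603 and 0.0268). ZNF24, a SCAN-domain zinc finger gene, was at 14.4, 15.9 and 12.1 CPM in high and 24.3, 4.81 and 20.7 CPM in low libraries. Here low library 2 was the lowest of all, and the difference turned from -0.03 to 0.64 without it (limma adjusted p = 0.990 and 0.0341).

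Without low library 2, limma called 19 ZNF genes, 11 lower in low (5.48% of all genes were) and 8 higher (8.15% of all genes). The low group then held only 2 libraries. The groups were apart without low library 2 in 41 ZNF genes with high above low (27.5% of all genes) and in 36 with low above high (27.6% of all genes). Of the 19 genes, 8 also had groups apart with all 6 libraries and 11 had overlapping groups. The matching share among all genes called without low library 2 was not counted. These calls rest on libraries that are also among the 6, so the 8 genes gain no support from this. The lower ones were ZNF131, ZNF135, ZNF331, ZNF572, ZNF502, ZNF287, ZNF784, ZNF177, ZNF74, ZNF428 and ZNF444. The higher ones were ZNF774, ZNF609, ZNF215, ZNF398, ZNF432, ZNF280B, ZNF24 and ZNF507. Some of these genes lie outside the rule for named genes and were named after their values were seen.

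**Figure D4:**
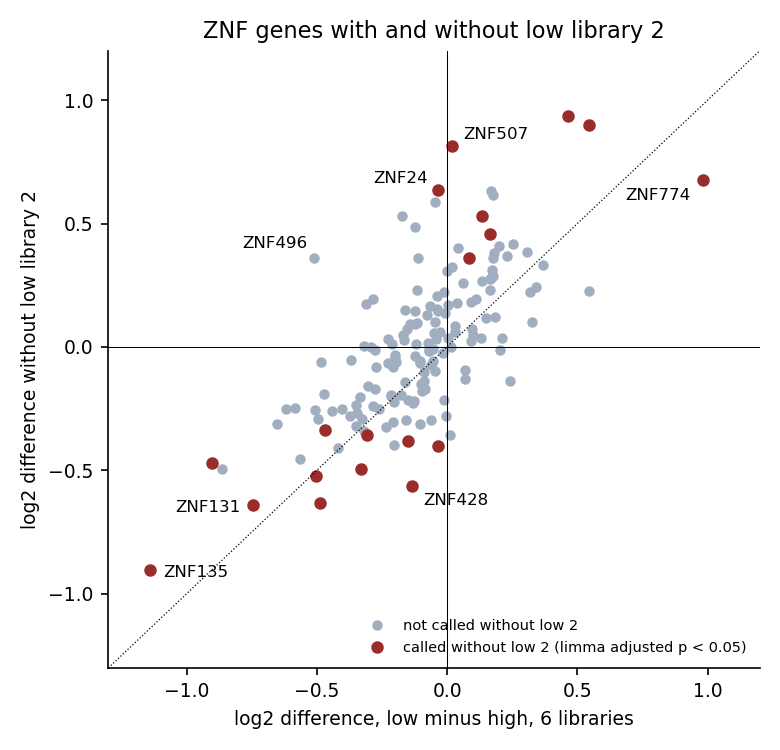
Log2 difference of each ZNF gene (low minus high) with all 6 libraries on the horizontal axis and without low library 2 on the vertical axis; the dotted line marks equal values. Red dots are the 19 genes called without that library. Of these, 11 lower and 7 higher ones keep their side of 0, among them ZNF131, ZNF135 and ZNF774, while ZNF24 moves from -0.03 to 0.64.

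The spread of low library 2 was wide in the ZNF genes, and it was wide over all genes too. Against the mean of the high libraries, its quartiles were -0.62 and -0.008 over ZNF genes and -0.38 and 0.35 over all genes. The following genes were picked for this spread after their values were seen. In 22 ZNF genes low library 2 was more than 1 log2 unit below the mean of low libraries 1 and 3, and in 4 it was more than 1 above. The share of all genes beyond these limits was not counted. ZNF496 had 7.51 CPM in low library 2, while low libraries 1 and 3 had 52.8 and 49.7 CPM and the high libraries 29.8 to 48.5 CPM. ZNF507 was at 2.18 CPM against 15.8 and 15.4 CPM in the other low libraries. ZNF445, which protects genomic imprints together with ZFP57, had 0.751 CPM on 10 reads in low library 2, while the other low libraries had 7.59 and 5.65 CPM and the high libraries 3.05 to 5.88 CPM. On the other side, ZNF428 was at 45.1 CPM in low library 2 against 17.6 and 18.1 CPM, and ZNF444 at 41.2 CPM against 18.4 and 19.0 CPM. ZNF593, a factor of large ribosomal subunit assembly, was at 89.7 CPM against 38.7 and 43.9 CPM, with 49.4 to 59.1 CPM in the high libraries. Its group difference of 0.01 was -0.36 without low library 2 (limma adjusted p = 0.994 and 0.0810).

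Of 27 ZNF genes listed for a known role, 18 were measured, 10 of them lower and 8 higher in low, with a median difference of -0.01 (0.09 without low library 2). Limma called 0 of them with 6 libraries and 1, ZNF24, without low library 2, where 13.6% of all genes were called. ZNF207, a partner of the checkpoint protein BUB3 on the spindle and the member with the most CPM, was at 221, 217 and 193 CPM in high and 209, 182 and 229 CPM in low libraries. These ranges overlapped, with a difference of -0.03 (0.06 without low library 2). ZNF622, another factor of large ribosomal subunit assembly, was at 76.8, 79.7 and 84.4 CPM in high and 85.7, 138 and 86.4 CPM in low libraries. Every low library was above every high one, but the difference of 0.33 was 0.10 without low library 2. ZNF706, which encodes a small protein, was likewise highest in low library 2, with 112 CPM there, 69.5 and 75.2 CPM in the other low libraries and 78.5 to 89.7 CPM in high. ZNF638, an RNA-binding and silencing factor, was at 137, 136 and 147 CPM in high and 172, 100 and 155 CPM in low libraries. ZNF384, ZNF335 and ZNF143, all transcriptional regulators, shared this dip, at 50.1, 54.3 and 8.64 CPM in low library 2 against 78.2 to 80.8, 98.6 to 107 and 16.6 to 16.7 CPM in low libraries 1 and 3. ZNF326, a subunit of the DBIRD complex that couples transcription with splicing, was at 83.1, 78.0 and 80.8 CPM in high and 72.8, 70.2 and 73.0 CPM in low libraries. It was lower in each low library, by only -0.16 on the log2 scale (limma adjusted p = 0.668), and by -0.14 without low library 2. ZNF346, which binds double-stranded RNA, was higher in each low library, at 7.04, 8.26 and 7.23 against 5.77, 6.97 and 6.71 CPM, a difference of 0.19 (limma adjusted p = 0.681), or 0.12 without low library 2.

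The groups overlapped in the remaining listed genes. ZNF462, a chromatin regulator of pluripotent cells, was at 1.99 to 3.72 CPM in high and 2.70 to 4.76 CPM in low libraries. The transcriptional regulators ZNF148 and ZNF703 had differences of -0.05 and 0.09, and ZNF830 one of -0.24. These were 0.06, 0.07 and -0.32 without low library 2. ZNF296 and ZNF408, which with ZNF207, ZNF638, ZNF687 and ZNF622 had the most CPM of the family, had differences of -0.20 and -0.10 with overlapping groups (-0.40 and -0.15 without low library 2). ZNF19 and ZNF554 had the fewest, at 0.901 to 1.28 and 0.628 to 1.85 CPM over the 6 libraries, on 12 to 37 reads each.

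By pattern over the 6 libraries, the ZNF genes most like ZNF131 in log2(CPM + 1) were ZNF326, ZNF572, ZNF692, ZNF582 and ZNF304, with Pearson's r from 0.927 to 0.975. Those most like ZNF135 were ZNF582, ZNF572, ZNF174, ZNF263 and ZNF131, with r from 0.919 to 0.968. With 6 points that share the group difference and low library 2, these values are a description of likeness. In the order of genes of assembly ARS-UCD2.0, where all 157 names matched a symbol and 156 had a place, ZNF131 neighbours the kinase gene NIM1K. NIM1K was at 1.46, 1.31 and 1.39 CPM in the high and 0.349, 0.451 and 0.157 CPM in the low libraries. Like ZNF131, NIM1K was thus higher in every high library, as were 10.6% of all genes. A shared cause at this place was not tested. Its mean of 0.852 CPM was near the lowest mean of any gene here, 0.737 CPM, so it rests on few reads. The gene on the other side of ZNF131, SELENOP, has no values here. Nor do C18H19orf18 beside ZNF135 and IQGAP1 beside ZNF774. ZNF135 sits beside ZNF329, whose groups overlapped, with a difference of -0.12 (limma adjusted p = 0.826). ZNF774 sits beside ZSCAN2, whose groups also overlapped, with a difference of 0.08 (limma adjusted p = 0.946). Across the family, 40 ZNF genes lay directly beside another measured ZNF gene, and 33 of them were lower and 7 higher in low. Of the 116 without such a neighbour 74 were lower and 42 higher. The medians were -0.11 and -0.09, and -0.06 and 0.03 without low library 2. Neighbours of the same family can share reads through similar sequence, and how strand and multiply mapped reads were counted is not given here. NIM1K, ZNF329 and ZSCAN2 were named after their values were seen.

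In other zinc finger families and the KRAB machinery, the median of the differences by gene was also below 0 in low library 2. The median level of the KRAB list was not lower there. It was 82.5 CPM in low library 2 and 58.3 to 74.7 CPM in the other libraries. The median of this library against the mean of low libraries 1 and 3 was -0.33 for ZNF genes, -0.48 for the 21 ZBTB genes, -0.66 for the 11 ZSCAN and ZKSCAN genes, -0.41 for the 8 ZFP genes and -0.54 for the 12 KLF and SP genes and -0.19 for 25 KRAB cofactors and heterochromatin factors, against -0.02 for all genes. The group differences had medians of -0.12, -0.16, 0.02 and 0.03 in these 4 families in that order, and of 0.10, 0.00, 0.13 and 0.34 without low library 2. Limma called 0 genes of each of the 4 families with all 6 libraries (1, 2, 0 and 0 at an unadjusted p below 0.05, where 12% of all genes were). It called 2, 2, 0 and 3 of them without low library 2, where 13.6% of all genes were called. Of the listed KRAB cofactors and heterochromatin factors 25 were measured, 17 lower and 8 higher in low, with a median of -0.10 (-0.04 without low library 2) and 0 calls (2 at an unadjusted p below 0.05). With that library left out limma called 3 of the 25, CHD4, GATAD2B and ATF7IP, all higher in low, against the same 13.6% of all genes. GATAD2B, a NuRD subunit, and ATF7IP, a partner of SETDB1, were named after their values were seen. TRIM28 itself was at 982, 941 and 776 CPM in high and 833, 942 and 860 CPM in low libraries. SETDB1 was at 44.5, 45.3 and 45.9 CPM in high and 44.5, 30.6 and 46.3 CPM in low libraries, where low library 2 alone was low. The groups overlapped in both TRIM28 and SETDB1. The H3K9 methyltransferase gene EHMT2 was at 166, 177 and 156 CPM in high and 138, 93.1 and 122 CPM in low libraries, a difference of -0.51 (limma adjusted p = 0.312, and 0.0653 without low library 2). MORC2 and the HP1 gene CBX3 had differences of -0.38 and -0.44, which were -0.15 and -0.16 without low library 2.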

How the data were processed

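RNA-seq was done on 3 libraries of high and 3 of low cryosurvival bovine blastocysts. The authors deposited a table of 9537 genes with decimal commas, giving CPM of a scaled library size per library (a unit worked out from the values) and, from an unnamed test, p-values, adjusted p-values and a log2 fold; 2 short lists held 114 rows, all of them equal to rows of that table. HTSeq 0.5.4p2, TopHat2 2.0.8, DESeq 1.12.1, Cufflinks 2.1.1, Bowtie2 2.1.0 and SAMtools 0.1.18 are listed per the submitters' processing notes, with no role; for build, annotation and strand the sources used here give nothing. Dividing the low CPM of a library by the CPM of 1 read gave whole reads (to 0.1) for 100% of values. The lowest mean of any gene in that table was 0.737 CPM, and the rule by which genes entered it is not given. ZNF genes that it leaves out, which may be low ones, were not analysed here.

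Limma 3.58.1 (R 4.3.3) was fitted to log2(CPM + 1) of the 6 libraries without covariates, and p-values were adjusted by Benjamini-Hochberg over the whole table; the pseudocount understates folds of low genes. The fit was tested on simulated data. An exact permutation test of 3 against 3 cannot go below 0.1. Differences are low minus high. Members, lists and named genes were chosen with earlier results of these data known. Named were ZNF genes called in the authors' deposited table, the 8 per direction with the smallest p, the 6 with the most and the 2 with the least CPM, ZNF131, ZNF135, the known-role list, the 5 genes most like ZNF131 and ZNF135, and cofactors with the smallest p. Protein sequences were not used here.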

Additional observations from a re-analysis of the deposited data

How the results depend on the processing

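The 0 ZNF genes called by limma stayed 0 under every alternative run except one: without low library 2 there were 19, so leaving out a library gave 0 to 19. Over all genes limma called 0, and 10 with a pseudocount of 0.5, 7 with 0.1, 7 among genes of at least 5 CPM on average, 7 after centring on the median of all genes, and 0 to 1300 with a library left out. The cause was not tested. The replicate number as a block gave 0 calls over all genes and 0 ZNF calls, with 13 ZNF genes at an unadjusted p below 0.05, where 8.36% of all genes were; deviations of same-numbered libraries correlated at 0.12, -0.26 and -0.31, so the numbers were not taken as pairs. The ZNF median of -0.10 ranged from -0.14 to 0.00 with a library left out and from -0.12 to -0.08 under the other alternatives except one. With each library centred on its own ZNF median, which by construction gives every library the same median ZNF level, it was 0.053 with 39.5% of ZNF genes lower, and the median of all genes moved to 0.15. That centring of the family median and of all genes, scaling to the table total, quantile normalization and voom were chosen after seeing the data. Of the named genes some with differences near 0 turned sign. Centred on the ZNF median, ZNF148 was at 0.10, ZNF19 at 0.11, ZNF207 at 0.12, ZNF24 at 0.12, ZNF408 at 0.049, ZNF554 at 0.086, ZNF638 at 0.14 and ZNF706 at 0.14. Centred on all genes, ZNF638 and ZNF706 were at 0.0041 and 0.0046. Voom gave 0.027 for ZNF24 and -0.0029 for ZNF593. Scaled to the table total, ZNF335 was at -0.0083 and ZNF593 at -0.016, and ZNF593 was at -0.0081 after quantile normalization. With a library left out the ranges were -0.13 to 0.057 for ZNF148, -0.10 to 0.033 for ZNF19, -0.11 to 0.060 for ZNF207, -0.42 to 0.64 for ZNF24, -0.16 to 0.32 for ZNF335, -0.29 to 0.048 for ZNF384, -0.62 to 0.53 for ZNF445, -0.26 to 0.14 for ZNF554, -0.36 to 0.24 for ZNF593, -0.16 to 0.22 for ZNF638, -0.0051 to 0.19 for ZNF703 and -0.22 to 0.12 for ZNF706. The edgeR and DESeq2 fits and the alternative by finger pattern were not run. Counts of reads limit genes such as ZNF19 and ZNF554.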
